A study of Mus musculus with 12 samples.

Results

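The levels of 8 genes of the erythroid lineage were followed across sorted cells of the mouse medial telencephalon in which the transcription factors Dmrt3 and Dmrta2 had been targeted with siRNAs or Dmrta2 had been supplied on a plasmid. The 8 genes were the globin genes Hba-x, Hba-a1, Hbb-y and Hbb-bh1, the haem synthesis gene Alas2, the membrane protein gene Epb42 and the transcription factor genes Klf1 and Gata1. They were chosen by name out of 19751 genes named on the array, and every probe that matched them was used: 7 genes had 1 probe and Hbb-y had several, for 9 probes in all. CD-1 embryos were electroporated in the medial telencephalon at stage E11.5 (embryonic day) together with a vector for EGFPNLS, a nuclear green fluorescent protein, and cells with GFP fluorescence were collected with a cell sorter 24 hours later, at E12.5. The 4 groups of 3 independent replicates received control siRNAs, the first set of siRNAs for Dmrt3/Dmrta2 (set 1), the second such set (set 2), or an expression vector for Dmrta2 (overexpression). The EGFPNLS vector was common to all groups, the promoter of either vector was not given in the sources used here, and neither was the number of embryos behind a replicate. No empty expression vector was among the samples, so the overexpression group was set against control siRNAs.

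Red cells of the early embryo come from the yolk sac and carry embryonic globins, which are later replaced by the globins of definitive red cells from the fetal liver. Hba-x encodes the embryonic zeta-like alpha chain and Hbb-y and Hbb-bh1 encode embryonic beta-like chains, while Hba-a1 encodes the alpha chain used by embryonic and adult red cells alike. Alas2 encodes the erythroid form of the first enzyme of haem synthesis, Epb42 encodes a protein of the red cell membrane skeleton, and Gata1 and Klf1 encode transcription factors that bind promoters and enhancers of erythroid genes. The telencephalon makes no red cells, and circulating primitive red cells, which are nucleated in the mouse, pass through its vessels at this stage.

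The promoter windows of the genes described most fully are shown because Hba-x varied together with Hbb-y, Hba-a1 varied together with Alas2, and Klf1 followed neither pair. Each window is the 250 bases before the annotated start, 5′ to 3′ on the gene's strand, from RefSeq (GRCm38.p6). Capitals mark GATAA (the core bound by GATA factors), CACCC (the core bound by Klf factors), CCAAT and TATAA, on the given or the reverse strand.
Hba-x (chr11:32276350-32276599, plus strand): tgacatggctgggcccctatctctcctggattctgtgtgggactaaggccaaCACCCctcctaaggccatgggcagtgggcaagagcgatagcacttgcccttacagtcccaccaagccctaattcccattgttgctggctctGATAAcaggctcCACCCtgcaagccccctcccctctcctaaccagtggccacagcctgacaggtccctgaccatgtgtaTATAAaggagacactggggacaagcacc
Hbb-y (chr7:103853208-103853457, minus strand): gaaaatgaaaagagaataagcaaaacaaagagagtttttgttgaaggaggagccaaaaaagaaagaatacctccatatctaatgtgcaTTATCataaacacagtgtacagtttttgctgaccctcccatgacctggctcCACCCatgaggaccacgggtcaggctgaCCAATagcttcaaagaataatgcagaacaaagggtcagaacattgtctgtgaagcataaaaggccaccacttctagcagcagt
Hba-a1 (chr11:32283422-32283671, plus strand): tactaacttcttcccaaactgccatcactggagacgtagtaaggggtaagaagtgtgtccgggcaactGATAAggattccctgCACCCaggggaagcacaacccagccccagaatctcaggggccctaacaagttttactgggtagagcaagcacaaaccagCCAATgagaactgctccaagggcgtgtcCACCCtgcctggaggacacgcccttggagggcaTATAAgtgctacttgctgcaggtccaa
Alas2 (chrX:150547167-150547416, plus strand): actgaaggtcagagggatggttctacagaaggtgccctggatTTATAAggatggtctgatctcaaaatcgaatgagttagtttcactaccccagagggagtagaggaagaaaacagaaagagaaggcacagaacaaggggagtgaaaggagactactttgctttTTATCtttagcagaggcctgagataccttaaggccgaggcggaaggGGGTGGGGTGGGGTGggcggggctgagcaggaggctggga
Klf1 (chr8:84901732-84901981, plus strand): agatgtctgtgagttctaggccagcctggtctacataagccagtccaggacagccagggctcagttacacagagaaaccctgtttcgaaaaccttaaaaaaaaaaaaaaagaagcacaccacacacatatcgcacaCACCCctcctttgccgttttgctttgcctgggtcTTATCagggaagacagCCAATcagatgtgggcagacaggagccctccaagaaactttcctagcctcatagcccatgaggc
A window was found for 7 of the 8 genes. GATAA stood in 6 of them, CACCC in 6, CCAAT in 3 and TATAA in 4. Over all 32851 promoter windows of the same length and both strands, the shares holding these letters were 22.6%, 52.0%, 33.8% and 22.8%. In the alpha-like genes TATAA began 28 bases before the start in Hba-x and 27 bases before it in Hba-a1. Hbb-y and Klf1 each held CCAAT, 83 and 64 bases before the start, and Alas2 held CACCC 3 times on the reverse strand. In Alas2 the TATAA matches of both strands overlapped each other, and no other marked matches overlapped. These short matches describe the windows only.

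All values below are log2 levels, the log2 processed signal of a probe minus the 75th percentile of its array, so that 0 is the 75th percentile and each unit is a doubling. The 12 arrays lay on 3 slides, with 1 array of each group per slide and the slide equal to the replicate number. Spots well above background made up 67.1% to 72.2% of each array, and the signal at the 75th percentile ran from 572 to 1143, highest on set 1 replicate 2. The number of arrays limits the precision. As to the labelled tissue, 12 of 12 telencephalic neural markers, among them Emx1, were well above background on all arrays. Dmrt3 averaged 0.35 ± 0.31 (SD, n = 3) under control siRNAs, -0.66 ± 0.50 with set 1, -0.44 ± 0.38 with set 2 and 0.29 ± 0.36 with overexpression. Dmrta2 averaged 2.57 ± 0.18, 1.96 ± 0.16, 2.26 ± 0.29 and 2.07 ± 0.12 in the same order. Its single probe was thus lower, not higher, in the library group labelled overexpression, and whether it lies in the sequence carried by the plasmid is not known, so it does not check that label.

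Globin RNA was present in every sorted sample. Hba-a1, Hbb-y and Hbb-bh1 were well above background on all 12 arrays and Hba-x on 11, the exception being control replicate 2. In all 6 genes that passed the filter on dim signal (Hba-x, Hba-a1, Hbb-y, Hbb-bh1, Alas2 and Klf1), the control siRNA group had the lowest mean of the 4 groups. Alas2 was measured on no control and passed the filter through the treated arrays alone, so its low control mean supports nothing. In all of the 6 but Klf1 the treated arrays differed widely among themselves. No difference between groups passed the test over all genes for any of the 8 genes. In such bulk samples, more erythroid cells and more RNA per cell cannot be told apart.

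**Figure D1:**
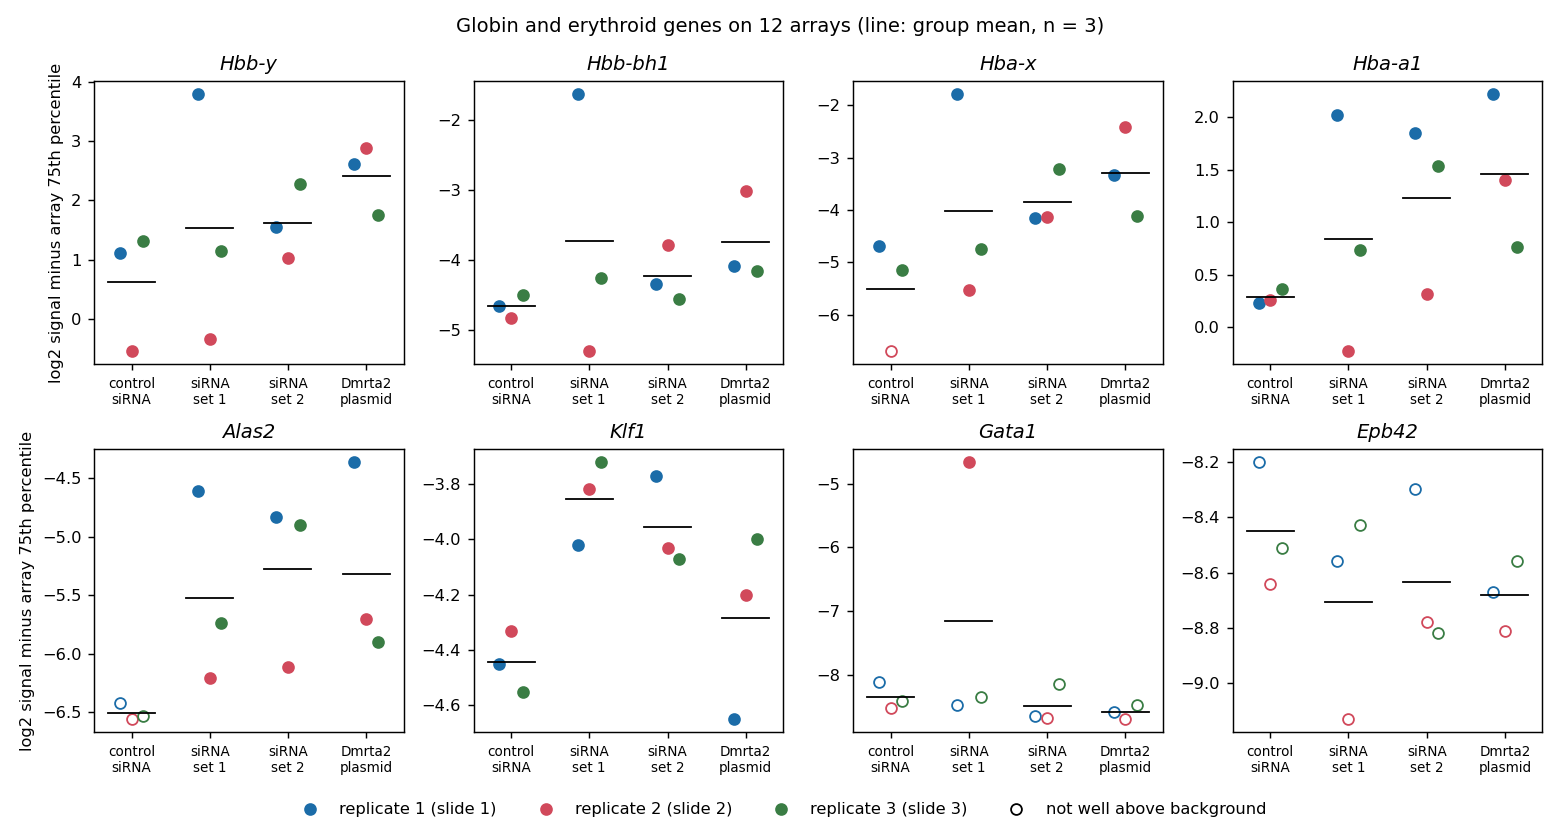
Log2 level of each of the 8 genes (y axes, log2 signal minus the array's 75th percentile) on the 12 arrays by group, with 1 point per array coloured by slide, open points for arrays not well above background, and a line at the group mean (n = 3). The controls of Hba-a1 lie within 0.13 of each other while the set 1 arrays span 2.25, Gata1 stands out on set 1 replicate 2 only, and Epb42 is open on every array. Hbb-y is shown by its brighter probe.

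Hbb-y, the embryonic epsilon-like beta chain, had log2 levels of 1.11, -0.55 and 1.31 in control replicates 1, 2 and 3. With set 1 the levels were 3.80, -0.34 and 1.15, and with set 2 they were 1.55, 1.02 and 2.27. With overexpression they were 2.62, 2.88 and 1.76. All 3 overexpression arrays lay above all 3 controls, set 1 replicate 1 was the highest array of all, and set 1 replicate 2 and control replicate 2 were the lowest. Both siRNA sets overlapped the controls, set 2 through its replicate 2, which lay below control replicates 1 and 3. The difference from control was 1.80 ± 0.89 for overexpression (SE; a 3.48-fold difference; limma adjusted p = 1), 0.91 ± 0.89 for set 1 and 0.99 ± 0.89 for set 2. Without set 1 replicate 1 the set 1 difference was -0.22. The second probe of Hbb-y gave the same order of arrays at the extremes, from -1.04 in control replicate 2 to 3.33 in set 1 replicate 1. Both probes had a correlation that rounded to 1.0 over the 12 arrays, and the overexpression difference by the second probe was 1.87 ± 0.89.

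Hbb-bh1, the other embryonic beta-like chain, had log2 levels of -4.65, -4.82 and -4.50 in the controls. With set 1 they were -1.63, -5.30 and -4.25, with set 2 -4.34, -3.79 and -4.55, and with overexpression -4.08, -3.01 and -4.15. The 3 overexpression arrays lay above the controls, but set 1 replicate 1 exceeded every other array and set 1 replicate 2 lay below every other array. The differences from control were 0.91 ± 0.74 for overexpression, 0.93 ± 0.74 for set 1 and 0.43 ± 0.74 for set 2. The mean of set 1 was carried by its replicate 1, and without that array the set 1 difference was -0.12.

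Hba-x, the embryonic alpha-like chain, was measured at -4.69 and -5.15 in control replicates 1 and 3, and its signal of -6.70 in control replicate 2 was not well above background. Set 1 gave -1.78, -5.52 and -4.75, set 2 gave -4.16, -4.14 and -3.22, and overexpression gave -3.33, -2.41 and -4.12. All arrays of set 2 and of overexpression lay above all controls, whereas set 1 did so in its replicate 1 only. The overexpression mean exceeded the control mean by 2.22 ± 0.88, a 4.66-fold difference with an interval of 0.26 to 4.18 on the log2 scale (limma adjusted p = 0.894). Without control replicate 2, the array below background, this difference was 1.63. Set 2 differed from control by 1.67 ± 0.88 and set 1 by 1.49 ± 0.88, the latter 0.37 without set 1 replicate 1.

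Hba-a1, the alpha chain shared by embryonic and adult red cells, was the steadiest in the controls of the 4 globins chosen, at 0.23, 0.26 and 0.36. Set 1 gave 2.02, -0.23 and 0.73, set 2 gave 1.85, 0.32 and 1.53, and overexpression gave 2.22, 1.40 and 0.76. The 3 arrays of slide 1 that received a treatment were the 3 highest of all, set 1 replicate 2 lay below the controls and set 2 replicate 2 lay among them, and only the overexpression arrays were all above the controls. The overexpression difference was 1.17 ± 0.57 (2.25-fold; limma adjusted p = 1), against 0.95 ± 0.57 for set 2 and 0.56 ± 0.57 for set 1. Without set 1 replicate 1 the set 1 difference was -0.04. Hba-a1 has a near-identical neighbour in Hba-a2, and cross-hybridisation between them was not tested. The probe assigned to Hba-a2 followed Hba-a1 at r = 0.99 over the 12 arrays.

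Alas2 was not well above background on any control array, where its signal stood at -6.42, -6.56 and -6.53, and was measured on all 9 treated arrays. Set 1 gave -4.61, -6.21 and -5.74, set 2 gave -4.83, -6.11 and -4.90, and overexpression gave -4.36, -5.70 and -5.90. Every treated array lay above every control, with the replicate 1 array the highest of each treated group. Because the controls give only a bound, a fold is given as "at least": each control array enters at its own Alas2 signal or at the dimmest signal that counts as well above background there, whichever is greater. On that basis Alas2 was at least 1.88-fold higher with both siRNA sets (1.10 ± 0.43 as fitted; limma adjusted p = 0.333). It was at least 1.73-fold higher with set 1, at least 2.04-fold with set 2 (adjusted p = 0.336) and at least 1.98-fold with overexpression (adjusted p = 0.999). With another background correction, which adds an offset and so compresses dim probes, the difference for both siRNA sets was 0.18.

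Klf1, the erythroid Kruppel-like factor, varied little between replicates and was measured on all 12 arrays. Control levels were -4.45, -4.33 and -4.55, set 1 levels -4.02, -3.82 and -3.72, and set 2 levels -3.77, -4.03 and -4.07. Overexpression gave -4.65, -4.20 and -4.00. All 6 siRNA arrays lay above all 3 controls, while the overexpression arrays ran from below the lowest control to the level of the siRNA arrays. With both siRNA sets Klf1 differed from control by 0.54 ± 0.15 (1.45-fold; interval 0.21 to 0.87), the lowest adjusted p of any of the 8 genes in that comparison, at 0.144 by limma, and it did not pass. The differences were 0.59 ± 0.17 for set 1 (adjusted p = 0.234), 0.49 ± 0.17 for set 2 (adjusted p = 0.243) and 0.16 ± 0.17 for overexpression (adjusted p = 1). Overexpression against both siRNA sets gave -0.38 ± 0.15 (adjusted p = 0.292). With the other background correction the same contrast was 0.05 and the siRNA difference 0.15.

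Gata1 and Epb42 were not tested, since too few arrays measured them. Gata1, the master regulator of the lineage, was well above background on set 1 replicate 2 alone, at -4.66, and its signal on the other 11 arrays lay between -8.69 and -8.11. That array was the one with the lowest Hbb-bh1 and Hba-a1. Epb42 was well above background on no array, with signals from -9.13 to -8.20.

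The genes differed in how much they varied within groups. The standard deviation within groups was 1.24 for Hbb-y, 1.23 for Hba-x, 1.02 for Hbb-bh1, 0.79 for Hba-a1 and 0.69 for Alas2, against a median of 0.24 over all genes tested. These values lay at percentiles 99.2, 99.2, 98.3, 96.0 and 94.3 of all genes, and Klf1, at 0.21, lay at percentile 40.8. In order of group means, Hba-x, Hba-a1 and Hbb-y ran from control through set 1 and set 2 to overexpression. Neighbouring groups in that order differed by less than the larger of their SDs, except set 2 and overexpression for Hbb-y (a gap of 0.81 against an SD of 0.62). For Alas2 the gap between control and set 1, 0.98 against 0.82, exceeded the SD and the other gaps did not. For Hbb-bh1 this held for control and set 2 (0.43 against 0.39), with overexpression and set 1 above them, and for Klf1 no gap exceeded the SD, in the order control, overexpression, set 2, set 1.

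**Figure D2:**
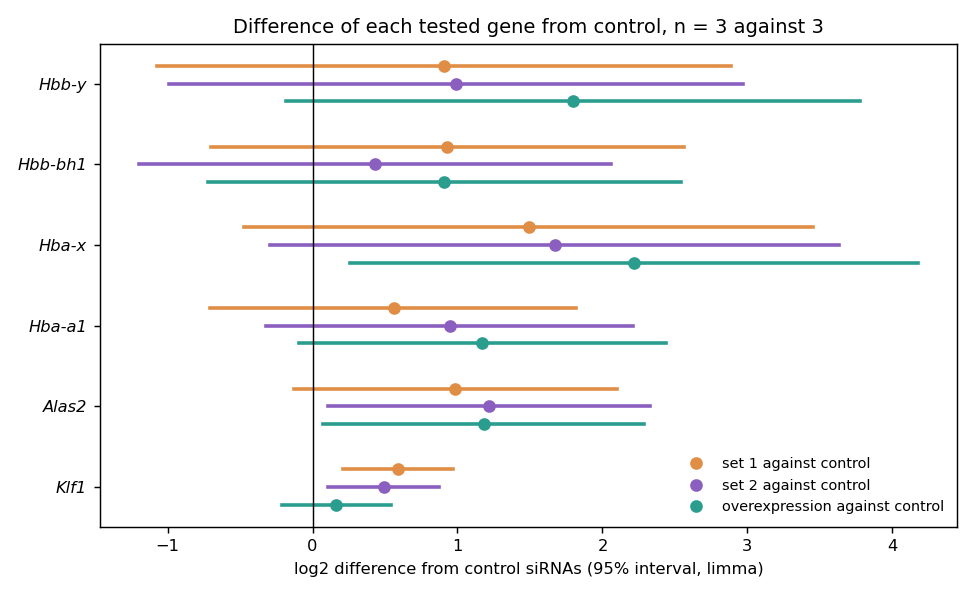
Log2 difference of each tested gene from control siRNAs (x axis) with its 95% interval from limma, for set 1, set 2 and overexpression (colours), n = 3 against 3. Every point lies to the right of 0, among them Alas2, which was measured on no control and so had to differ. Before adjustment over all genes the intervals of Klf1 under both siRNA sets do not reach 0. Nor do those of Alas2 under set 2 and overexpression and of Hba-x under overexpression.

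The comparison of both siRNA sets with the controls asks what follows loss of Dmrt3 and Dmrta2. None of the 6 tested genes passed limma's adjusted threshold of 0.05, where 0.703% of all 15369 genes tested did, and 2 of the 6, Alas2 and Klf1, had an unadjusted p under 0.05 with a higher level, against 7.37% of all genes. All 6 siRNA arrays lay above all 3 controls in the same pair, against 3.3% of all genes. Alas2, measured on no control, passed the filter through the treated arrays alone and had to differ, so neither count supports anything, and among the other 5 genes each count was 1, Klf1. The differences of the 6 genes were all above 0, as were 49.4% of all genes, with a median of 0.85 against 0 over all genes. For the same reason neither this count nor this median supports anything, and over the 4 genes measured on all arrays the median was 0.71. For set 1 against control the count past the adjusted threshold was 0 of 6 (background 0.215%), with Klf1 at an unadjusted p under 0.05 (background 6.16%) and Alas2 and Klf1 not overlapping the controls (background 7.49%). For set 2 it was 0 of 6 (background 0.943%), with Alas2 and Klf1 at an unadjusted p under 0.05 (background 7.7%) and 3 of 6, Hba-x, Alas2 and Klf1, not overlapping (background 10.3%). Without Alas2 the counts not overlapping were 1 of 5 for set 1 and 2 of 5 for set 2. All 6 differences, with that of Alas2 among them, were above 0 in each set (background 48.4% for set 1 and 50.7% for set 2). The medians were 0.92 for set 1 and 0.97 for set 2, but 0.17 for set 1 without its replicate 1. All these comparisons share the same 3 control arrays.

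Comparing overexpression with control siRNAs asks what follows a gain of Dmrta2. Again 0 of 6 genes passed limma's adjusted threshold (background 0.28%), and Hba-x and Alas2 had an unadjusted p under 0.05 with a higher level (background 3.83%). In 5 of the 6 genes, all but Klf1, the 3 overexpression arrays lay above the 3 controls, where 5.9% of all genes did so. These counts also hold Alas2, and without it they were 1 of 5 at an unadjusted p under 0.05 and 4 of 5 above the controls. All 6 differences were above 0 (background 52.4%), which for Alas2 had to be so. The median was 1.18 over the 6 genes and 1.04 over the 4 measured on all arrays, against 0.01 over all genes. Control replicate 2 was the lowest control for Hba-x, Hbb-y and Hbb-bh1, and without it the overexpression differences of these genes were 1.63, 1.21 and 0.83.

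The siRNA sets were also set against each other and against overexpression, the only direct test of a difference between loss and gain. Set 2 against set 1 called 0 of 6 genes by limma (background 0.0781%), with 0 at an unadjusted p under 0.05 higher in set 2 (background 4.63%) and none without overlap (background 7.68%). The differences ran from -0.50 ± 0.74 for Hbb-bh1 to 0.39 ± 0.57 for Hba-a1. The 95% intervals were wide, at -1.78 to 2.14 for Hba-x and -1.90 to 2.06 for Hbb-y. Overexpression against both sets called 0 of 6 (background 2.15%), with 1 of 6, Klf1, at an unadjusted p under 0.05 in either direction (background 13.3%) and 0 without overlap (background 3.82%). The other 5 genes differed there by 0.08 ± 0.43 (Alas2) to 0.85 ± 0.77 (Hbb-y). The intervals were -0.87 to 2.56 for Hbb-y and -1.06 to 2.34 for Hba-x.

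Within slides, where a treated array met the control of the same slide, the embryonic globins departed on different slides in different groups. On slide 1 the set 1 array exceeded its control by 2.69 for Hbb-y, 3.02 for Hbb-bh1 and 2.90 for Hba-x. On slide 2 the overexpression array exceeded its control by 3.43, 1.80 and 4.28 for the same genes, and the control of that slide was the lowest control for all 3 of them. On slide 3 the departures of these 3 genes reached no more than 1.93, the value of Hba-x with set 2. Set 2 on slide 1 set Hba-a1 and Alas2 apart from the embryonic chains: Hba-a1 exceeded its control by 1.62 and Alas2 by 1.59, but Hbb-y by 0.44, Hba-x by 0.53 and Hbb-bh1 by 0.30. On slide 2 set 2 showed the opposite, with 2.55 for Hba-x and 1.57 for Hbb-y against 0.05 for Hba-a1 and 0.45 for Alas2. Klf1 exceeded its control by 0.43, 0.51 and 0.83 with set 1 and by 0.68, 0.30 and 0.49 with set 2 on slides 1, 2 and 3, and by -0.20, 0.14 and 0.56 with overexpression. Fitting the slide as a block left 0 of 6 genes called in each of the 6 comparisons, where the share of all genes called was 1.52% for both sets, 0.748% for set 1, 2.36% for set 2 and 0.364% for overexpression against control, 0.241% for set 2 against set 1 and 3.45% for overexpression against both sets. The lowest blocked adjusted p was 0.105, for Alas2 under set 2.

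**Figure D3:**
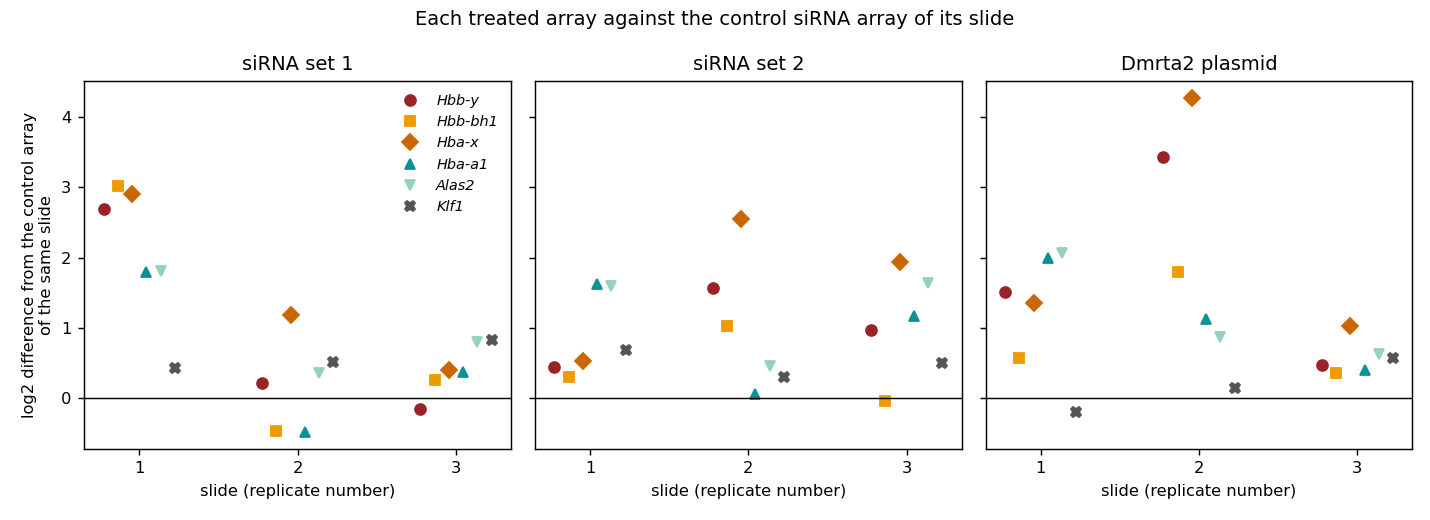
Log2 difference of each treated array from the control siRNA array of its own slide (y axis) by slide (x axis) for the 6 tested genes, in panels for set 1, set 2 and overexpression. For Hba-x, Hbb-y and Hbb-bh1, set 1 is highest on slide 1, where Hbb-bh1 reaches 3.02, and overexpression on slide 2, where Hba-x reaches 4.28. Hba-a1 is highest on slide 1 in every panel. Alas2 is highest on slide 1 with set 1 and overexpression, but with set 2 it reaches 1.59 on slide 1 and 1.63 on slide 3. Klf1 stays between -0.20 and 0.83.

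The globins followed each other to different degrees over the 12 arrays, which share slides and controls. Hba-x and Hbb-y correlated at r = 0.96, both over all arrays and after subtracting group means, and at 0.94 without set 1 replicate 1. Hbb-bh1 correlated with each of them at 0.81, and at 0.75 and 0.73 without that array. Hba-a1 correlated with Alas2 at 0.94 (0.96 within groups) and with the adult beta chain Hbb-bt at 0.91, whereas Hbb-bh1 correlated with Hbb-bt at 0.30 and with Alas2 at 0.48. With the embryonic chains Hba-a1 correlated at 0.83 (Hbb-y), 0.77 (Hba-x) and 0.59 (Hbb-bh1), so the correlations formed no separate groups. Klf1 followed none of the other 5, with r from -0.11 to 0.11 over all arrays and from -0.57 to -0.27 within groups.

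**Figure D4:**
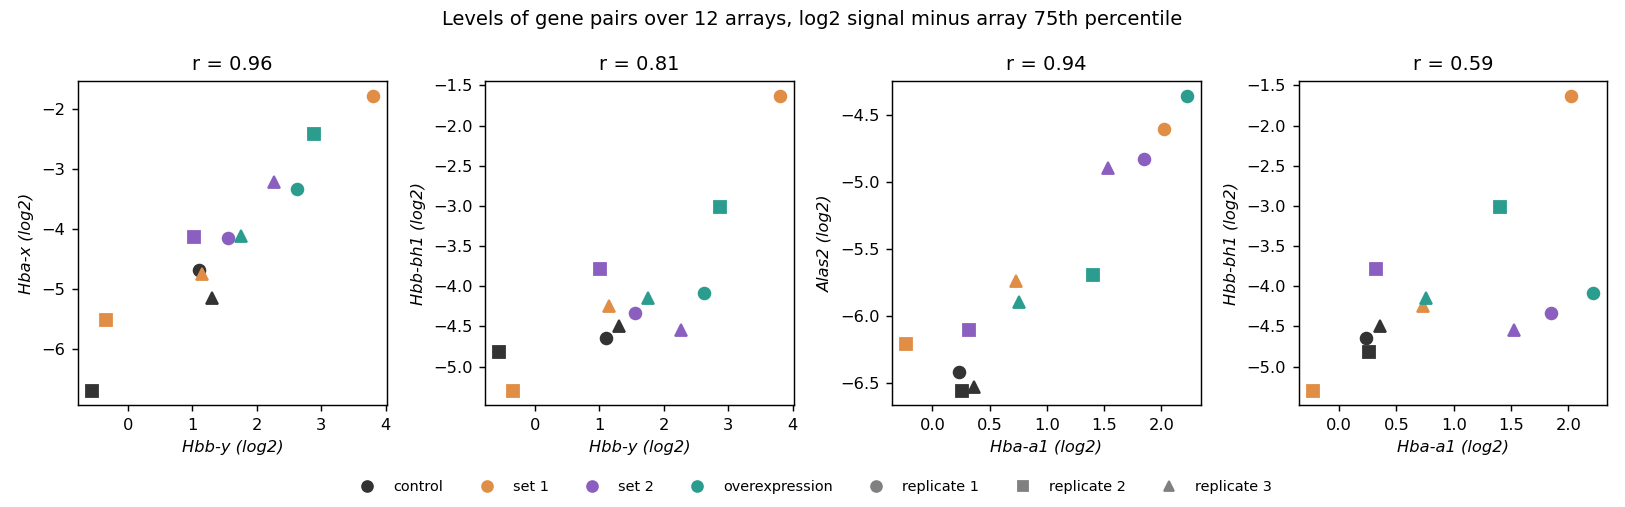
Log2 levels of pairs of genes on the 12 arrays, with 1 point per array, colour for the group and shape for the replicate, and Pearson's r above each panel as a description. Hbb-y with Hba-x (r = 0.96) and Hba-a1 with Alas2 (r = 0.94) fall along a line, while Hba-a1 with Hbb-bh1 (r = 0.59) shows arrays high in one and near the controls in the other.

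By the same measure, the mean of the 4 genes measured on all arrays was set against each of 13753 genes measured on all arrays, whose median r was 0.07. The 10 most alike were Zdhhc9 (r = 0.919), Nt5c1a (0.892), Adgra2 (0.863), Hba-a2 (0.853), Apod (0.835), Tmem37 (0.828), Cdkn2aipnl (0.825), Arpc1b (0.823), Tspan31 (0.82) and Ncf1 (0.813). Hba-a2 was the sole globin among them. Of the 4 genes themselves, Klf1 correlated with their mean at 0.063 and Hbb-y at 0.961.

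Of the other globins, Hba-a2, Hbb-bt and Hbb-b2 correlated with Hba-a1 at 0.99, 0.91 and 0.81, and with Hba-x at 0.75, 0.51 and 0.36. Hba-a2, the second adult alpha chain, had log2 levels of 2.48, 2.48 and 2.55 in the controls and 4.44, 3.51 and 3.00 with overexpression. Hbb-bt, an adult beta chain, had 0.25, 0.35 and 0.41 in the controls and 2.65, 0.41 and 0.89 with overexpression. The overexpression arrays lay above the controls for both, by a narrow margin in replicate 2 of Hbb-bt, with differences of 1.15 ± 0.63 and 0.98 ± 0.74 (limma adjusted p = 1 for each). Hbb-b2 differed by 1.20 ± 0.75 and overlapped the controls. The theta-like gene Hbq1b, measured on 11 arrays, averaged -6.08 ± 0.21 (SD, n = 3) in the controls and -6.21 ± 0.47 with overexpression, and Hbq1a and Hbb-bh2 were measured on 1 array each.

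Beyond the 8 genes, part of the red cell programme lay below background, and of the rest none passed the test against control siRNAs unless the slide was fitted as a block. A wider list of 77 erythroid genes had 74 on the array, of which 59 passed the filter. Its globin role held 9 of the genes listed and 4 of those tested. By limma 0 of the 59 were called against control siRNAs, with 8 at an unadjusted p under 0.05 in either direction for both sets (background 12%), 5 for set 1 (9.97%), 9 for set 2 (12.8%) and 4 for overexpression (4.48%), shares near those of all genes. With the slide as a block limma called 2 of the 59 for both sets, 1 for set 1, 1 for set 2 and 0 for overexpression, where all genes were called at the blocked shares given above. These blocked counts for both sets and for set 2 hold Nfe2, as do the unadjusted counts for both sets, set 2 and overexpression. The unadjusted count for set 2 also holds Rhd. Nfe2 and Rhd were measured on no control and passed the filter through the treated arrays alone, so their part in the counts supports nothing. The medians of the 59 were 0.08, 0.03, 0.09 and 0.03. Among membrane and skeleton genes, the red cell genes Rhag, Kel, Icam4 and Cldn13 were well above background on no array, and Sptb and Slc14a1 on 1. Slc4a1, the band 3 anion exchanger, was measured on all arrays at a mean of -4.34 in the controls and differed by 0.22 ± 0.21 with both siRNA sets and 0.21 ± 0.24 with overexpression. All 17 genes of haem synthesis and iron handling were measured on all arrays, with medians of -0.05 with both siRNA sets and 0.04 with overexpression. Tfrc, the transferrin receptor, differed by -0.13 ± 0.22 with both siRNA sets and 0.24 ± 0.25 with overexpression.

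Single genes of the wider list stood apart from the controls, and are given beside the share of all genes that did. All arrays lay above all controls for 3 of the 59 with both sets (3.3% of all genes) and 6 with set 1 (7.49%). For set 2 it was 8 (10.3%) and for overexpression 9 (5.9%). Nfe2 is in the last 2 of these counts and Rhd in that of set 2, so their part supports nothing. With the slide as a block Gypc passed, as did Nfe2, which was measured on no control array. Gypc (glycophorin C), which many cells besides red cells express, differed by 0.64 ± 0.14 with both siRNA sets (limma adjusted p = 0.0821), by 0.79 ± 0.16 with set 1 (0.0855) and by 0.50 ± 0.16 with set 2, all siRNA arrays above all controls. With the block limma's adjusted p for Gypc was 0.0268 for both sets and 0.0326 for set 1. Slc25a38, a mitochondrial glycine carrier of haem synthesis (0.25 ± 0.08), and Epor, the erythropoietin receptor (0.35 ± 0.22), also lay above the controls on all siRNA arrays, and E2f2, a cell cycle factor, lay below the controls (-0.64 ± 0.16, adjusted p = 0.117). Nfe2, a regulator of globin and platelet genes, was measured on no control array, on 1 of 3 set 1 arrays, on all 3 set 2 arrays and on 2 of 3 overexpression arrays. Its fitted difference was 1.09 ± 0.32 for set 2 (limma adjusted p = 0.171, and 0.0195 with the block) and 0.86 ± 0.28 for both sets (0.231, and 0.0268 with the block), against controls that give only a bound. Like Alas2, Nfe2 passed the filter through the treated arrays alone and had to differ, so its passing with the block supports nothing. With overexpression, Aqp1, a water channel, differed by 0.72 ± 0.20 (adjusted p = 0.351) and Lmo2, a bridging partner of GATA factors also used in endothelium, by 1.28 ± 0.27 (adjusted p = 0.132), each above all controls. Lmo2 was the 1 gene of the 59 that passed in any of the 6 comparisons without the block: in overexpression against both siRNA sets it was higher by 1.50 ± 0.24 (limma adjusted p = 0.0103, and 0.00739 with the block; n = 3 against 6), and by 1.38, 1.33 and 1.79 within slides 1, 2 and 3. Cpox, a late enzyme of haem synthesis, passed there with the block alone (0.57 ± 0.16; limma adjusted p = 0.128, and 0.0447 with the block). Kit, a stem cell factor receptor, differed by 1.02 ± 0.32 in that comparison (adjusted p = 0.164).

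Markers of other cell types that vessels and meninges could bring were measured beside the globins. Of 14 microglia and macrophage markers 11 were tested, and limma called 5 higher with both siRNA sets (0.703% of all genes called), 0 with set 1 (0.215%), 5 with set 2 (0.943%) and 4 with overexpression (0.28%), with medians of 1.13, 0.63, 1.44 and 1.61. With set 1, 7 were higher at an unadjusted p under 0.05 (6.16% of all genes). The mean log2 level of the 11 ran from -3.83 to -3.19 in controls, -3.18 to -2.39 in set 1, -2.54 to -2.24 in set 2 and -2.57 to -2.21 in overexpression, so that every treated array lay above every control, by a narrow margin in set 1. Mrc1, measured on 3 arrays and on no control, passed the filter through treated arrays alone. Its part in the counts, medians and means of the 11 supports nothing, and whether the set 1 margin holds without it was not tested. Summed over the list, their signal relative to the 75th percentile overlapped between groups, at 13.8 to 24.6 in controls, 11.3 to 26.1 in set 1, 13.0 to 25.0 in set 2 and 13.1 to 24.3 in overexpression, but 92.3% to 98.4% of that sum came from Itgam and Csf1r, which differed from control by -0.08 ± 0.36 and -0.03 ± 0.55 with overexpression. Spi1 was well above background on no array. The tested erythroid genes summed to 1.99 to 3.88 in controls, 1.77 to 18.7 in set 1, 3.49 to 7.94 in set 2 and 5.28 to 11.1 in overexpression, so all overexpression arrays exceeded all controls. Most of this sum came from Hbb-y and Hba-a1, at 2.16 and 1.17 of 3.47 in control replicate 1 and 13.9 and 4.07 of 18.7 in set 1 replicate 1. Pericyte and mesenchyme markers, 8 of 11 tested and 0 called, summed to 1.07 to 1.54 in controls, 2.04 to 7.26 in set 1, 1.57 to 1.74 in set 2 and 1.22 to 1.91 in overexpression, with Lum on 1 array. Set 1 and set 2 thus lay above the controls in sum. The medians were 0.80 for both sets, 1.12 for set 1, 0.33 for set 2 and 0.70 for overexpression. Of the 8, 5 to 7 were measured on the controls, 7 to 8 with set 1 and with overexpression, and 6 to 8 with set 2. Genes dim in the controls are thus among the 8, and their part in these medians and counts supports nothing. At an unadjusted limma p under 0.05, 3 of the 8 were higher with set 1 (6.16% of all genes) and 3 with overexpression (3.83%). Endothelial markers, 9 of 12 tested and 0 called, overlapped in their sums, at 7.43 to 13.7 in controls, 5.7 to 14.1 in set 1, 7.82 to 13.5 in set 2 and 7.8 to 14.2 in overexpression, with Tek and Emcn on no array. Their medians were 0.15 for set 1, 0.45 for set 2 and 0.43 for overexpression. On each control 6 of the 9 were measured, against 7 to 9 with the siRNA sets and 8 with overexpression. Genes dim in the controls are thus among the 9, and their part in these medians and counts supports nothing. Of the 9, 1 lay above all controls with set 1 (7.49% of all genes) and 1, Flt1, with overexpression (5.9%). Of 12 megakaryocyte markers 6 were tested, Gp1ba and Gp9 were on no array, and the sums ran from 0.285 to 0.35 in controls and up to 0.481 in set 1. Pf4, platelet factor 4, was measured on 9 arrays. These were 1 of 3 controls, all set 2 and overexpression arrays, and all set 1 arrays but replicate 3. Over the 12 arrays the mean of each list correlated with the mean of the 4 erythroid genes measured on all arrays at 0.74 for microglia, 0.70 for mesenchyme, 0.68 for megakaryocytes, 0.58 for endothelium and -0.33 for neural markers. How completely the sort by GFP fluorescence removed cells without the vector is not known from the data used here. The part of these other cells in the globin values was not tested.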

How the data were processed

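One-colour Agilent arrays were hybridised with Cy3-labelled cRNA, per the labels' protocols. Spot intensity was taken from the deposited processed signal, which Feature Extraction 10.5.1.1 from Agilent had background-subtracted and detrended but not scaled between arrays, per the file headers. The authors' deposited table of log2 values matched these signals scaled to the 75th percentile and centred on each probe's median (r from 0.9991 to 0.9998), with column medians of -0.13 to 0.10, and served as an alternative; no label states its scale.

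Control spots and spots with outlier marks (136 to 218 of 43020 per array) were left out, and no spot was saturated. Log2 signals were set against each array's 75th percentile. Probes were named through their RefSeq accession (GRCm38.p6): 26055 of 39429, for 19751 genes. The array annotation uses build mm9, so probe coordinates are not given. Probes well above background on 3 or more of 12 arrays and the brightest probe of a gene were kept, which left 15369 genes. limma 3.58.1 (R 4.3.3) was fitted over all 12 arrays with group as the only term, two-sided, with Benjamini-Hochberg adjustment over all genes and a threshold of 0.05; SE is limma's moderated error, and p-values measure the spread between 3 replicates. The code was tested on simulated data.

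The file headers place arrays with the same replicate number on 1 slide, a shared batch, and each group at 1 position of it, so position and group cannot be told apart. Deviations from group means correlated at 0.02 to 0.599 between arrays of the same number and at -0.516 to 0.212 between others. The slide was therefore fitted as a block as an alternative. Other alternatives were normexp correction (offset 50) of the deposited median and background intensities, since mean intensities were not used here, leaving out up to 24 spots per array whose background exceeded 10 times the median; other scalings, filters and probe rules; fits to the groups compared alone; and each array left out in turn. Leaving out slide 1 was added after seeing the data. Named were the 8 genes, and genes of a wider erythroid list past the threshold, measured on all arrays without overlap between groups, or up to 3 per role as examples. The 8 genes and all lists were chosen with earlier results of these data known. Some genes of the lists are not reported by name here.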

Additional observations from a re-analysis of the deposited data

How the results depend on the processing

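In all 6 comparisons the number of the 8 genes past the adjusted threshold was 0 under every alternative run, with limma's lowest adjusted p at 0.102 to 0.559 when single arrays were left out. The replicate block, with the slide as its term, left these counts at 0 and changed no call of these genes (lowest adjusted p 0.111, 0.181, 0.105, 0.327, 0.715 and 0.226 for both sets, set 1, set 2 and overexpression against control, set 2 against set 1, and overexpression against both sets). The median difference of the tested genes ran over all alternatives from 0.40 to 1.17 for both sets, 0.17 to 1.52 for set 1, 0.32 to 1.34 for set 2 and 0.66 to 1.50 for overexpression against control. It ran from -0.36 to 0.84 for set 2 against set 1 and from 0.03 to 0.73 for overexpression against both sets. The lowest values against control for both sets, set 2 and overexpression, 0.40, 0.32 and 0.66, came from normexp, whose offset compresses dim probes.

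Of 36 gene values, 25 kept their direction in every alternative and 11 did not. Without single arrays, set 1 against control ran from -0.04 to 1.09 for Hba-a1, -0.22 to 1.85 for Hbb-y and -0.12 to 1.72 for Hbb-bh1, the lowest without set 1 replicate 1. Leaving out slide 1, chosen after seeing the data, gave -0.06 for Hba-a1 and -0.12 for Hbb-bh1 there. Set 2 against set 1 ran without single arrays from -0.57 to 1.30 for Hba-x, -0.14 to 0.98 for Hba-a1, -0.86 to 1.21 for Hbb-y, -1.29 to 0.54 for Hbb-bh1 and -0.11 to 0.69 for Alas2. It was -0.05 for Hba-x with normexp and 0.60 for Hbb-bh1 without slide 1. Overexpression against both sets ran from -0.17 to 0.75 for Hbb-bh1 and -0.40 to 0.37 for Alas2 without single arrays, was -0.06 for Alas2 without slide 1, and was 0.05 for Klf1 with normexp. Apart from what the construction of these alternatives shows, the cause was not tested.

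The background of called genes moved more. Among all genes, 108 were called for both sets, against 36 when the fit held only the groups compared, 37 with no filter, 57 with median scaling, 58 with normexp, 234 with the block, 17 to 88 without single arrays and 1 without slide 1. For set 1 the 33 became 14 with median scaling, 115 with the block, 0 with only the groups compared, 0 without slide 1 and 4 to 84 without single arrays. For set 2 the 145 became 26 with no filter, 50 with median scaling, 82 with normexp, 362 with the block, 0 with only the groups compared, 1 without slide 1 and 10 to 145 without single arrays. Overexpression against control called 43, 26 when only probes measured on all arrays were kept, 0 without slide 1 and 19 to 55 without single arrays. Overexpression against both sets called 331, against 530 with the block, 43 without slide 1 and 106 to 329 without single arrays. Set 2 against set 1 called 12, against 0 to 37 over the alternatives. In the wider erythroid list the block added Gypc, and Nfe2, which no control array measured, to the calls against control. It added Cpox to overexpression against both sets. Signal at background limits Alas2 in the controls, Gata1 and Epb42.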
